A study of Homo sapiens with 4 samples.

Results

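The RNAs of the proteins that build the mitochondrial ribosome were followed in 2 human cancer cell lines before and after decitabine (DAC), a cytidine analogue that is built into DNA and traps DNA methyltransferases. Members were chosen by name alone. They are the genes whose symbol is MRPL or MRPS followed by a number and, for some, a letter from A to C, and pseudogenes were not included. This gave 78 genes of the 59533 analysed, all found in GENCODE 29, spread over 21 chromosomes with 8 on chromosome 17. HCC1937 was derived from a breast carcinoma and THP-1 from a monocytic leukaemia. The labels give both lines as p53-/- and state infection with p53-R282W. This p53 mutant is carried by the untreated groups too. HCC1937 received 0.3 µM DAC for 5 days and THP-1 received 5 µM DAC for 2 days. Each of the 4 groups is 1 RNA-sequencing library, so no difference within a line could be set against replicate spread, and the lines differ in dose and time as well as in cell type. No library without p53-R282W was used here, and the labels do not say whether the infected cells were clones or pools.

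The mitochondrial ribosome translates the messengers of the mitochondrial genome, which code for core subunits of the respiratory chain. It has a small subunit, which holds the mRNA and decodes it, and a large subunit, which joins the amino acids and carries a tunnel for the new protein. Its rRNAs come from mitochondrial DNA, whereas all of its proteins are made from nuclear genes in the cytosol and are imported. Some of these proteins have a counterpart in bacterial ribosomes and others are found only in mitochondria. The symbols do not always tell the subunit. MRPS30 and MRPS18A are proteins of the large subunit, and MRPS36 is now described as a subunit of the 2-oxoglutarate dehydrogenase complex, so it is counted as a member by its symbol but placed in neither subunit here.

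Values are FPKM, fragments scaled to gene length and per unit of library depth, and the deposited values imply 18.7 to 19.7 M counted reads per library. All 8 breast epithelial markers checked were at 1 FPKM or more in both HCC1937 libraries, and all 8 monocytic markers were in both THP-1 libraries. In HCC1937 the monocytic list summed to 9.71 FPKM untreated and 11.11 FPKM with DAC, with 1 and 3 of 8 genes at 1 FPKM or more (CD14 in both, CSF1R and ITGAM with DAC) and 2 at 0. In THP-1 the epithelial list summed to 2.08 and 5.97 FPKM, with 1 and 2 of 8 at 1 FPKM or more. The epithelial sum in HCC1937 went from 1925.2 to 2263.93 FPKM with KRT19 from 3.87 to 294.17 FPKM, and the part of such shifts in the results was not tested. Fewer cells of a state and less RNA per cell cannot be told apart in such libraries.

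In HCC1937 the members lay lower with DAC than most other genes. A member was kept in a line when it reached 1 FPKM in at least 1 library of the pair, which 76 of 78 did in HCC1937. Differences are on the log2(FPKM + 1) scale, DAC minus untreated, which understates changes of low genes. At least 1.2-fold lower with DAC were 24 of the 76 kept members (31.6%), against 16.1% of all 14058 kept genes, and at least 1.2-fold higher were 4 members (5.3%), against 43.5% of all kept genes. At 1.5-fold, 7 members were lower and 0 higher, where 5.93% of all kept genes were lower and 22.0% higher. On this scale no member reached 2-fold, where 10.3% of all kept genes were higher and 1.44% lower, although the plain FPKM ratio of the very low MRPL53 was 0.128. The median difference of the members was -0.13 (quartiles -0.32 and 0.05), against 0.19 over all kept genes, with 49 members below 0 and 27 above. Summed over the members, the level went from 2215.6 to 1908.9 FPKM, or from 0.761% to 0.677% of the library's FPKM sum.

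These counts depended on how the 2 libraries were scaled to each other. Median-of-ratios scaling moved the median of all kept genes from 0.19 to 0.01. It gave 1 member higher (1.3%) and 44 lower (57.9%), against 30.9% and 27.2% of all kept genes. Upper-quartile scaling gave 2 higher (2.6%) and 41 lower (53.9%), against 33.2% and 24.5% of all kept genes. At 1.5-fold these scalings gave 14 and 10 members lower, of which 3 and 2 were past 2-fold. Of all 14058 kept genes, 1492 and 1319 were lower at 1.5-fold, of which 360 and 317 were past 2-fold. Setting equal the sums of all genes outside the mitochondrial genome gave 6 higher (7.9%) and 17 lower (22.4%) at 1.2-fold. The shares of all kept genes were then 48.6% and 13.3%. At 1.5-fold it gave 4 members lower, and 656 of the 14058 kept genes. Under these 3 scalings and the deposited one, the median of the members lay 0.31 to 0.35 below that of all kept genes. This gap, members minus all kept genes, varied more with the other settings. It was -0.37 with a pseudocount of 0.1 and -0.17 with a pseudocount of 10. With a filter of at least 5 FPKM it was -0.26, and with no filter on low values -0.13.

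**Figure D1:**
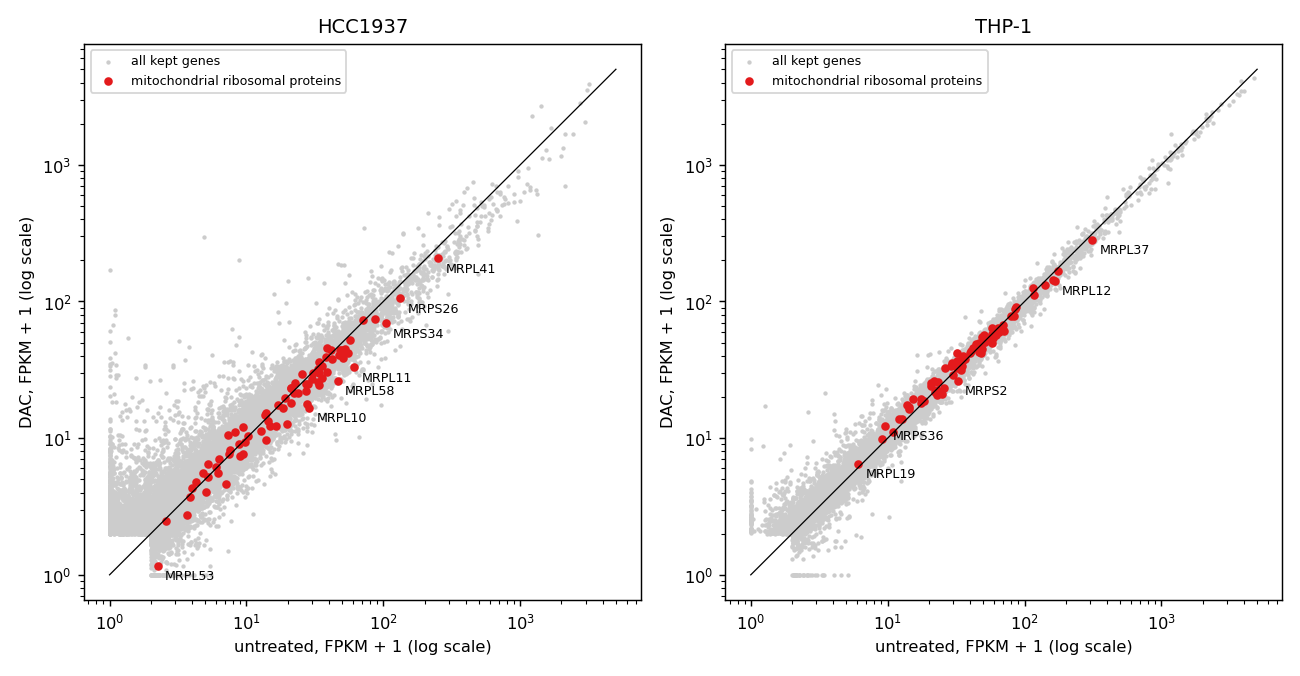
FPKM + 1 with DAC (vertical, log scale) against untreated (horizontal, log scale) for all kept genes (grey) and for mitochondrial ribosomal proteins (red), with HCC1937 on the left and THP-1 on the right; the line marks equal levels. In HCC1937, 49 of the 76 kept members lie below the line, and in THP-1 the 77 kept members stay close to it.

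Of the 7 members at least 1.5-fold lower in HCC1937, 6 were large-subunit proteins, a split that was 9 of 14 under median-of-ratios scaling, with 49 of the 76 kept members in that subunit. Of the 49 kept large-subunit members 16 were at least 1.2-fold lower (32.7%) and 1 was higher (2.0%), with a median of -0.15. Of the 26 small-subunit members 8 were lower (30.8%) and 2 higher (7.7%), so the lower shares of the subunits were nearly equal. The small-subunit median was -0.06, which became 0.00 when the sums outside the mitochondrial genome were set equal. Of all kept genes 16.1% were lower and 43.5% higher. By origin, the large-subunit proteins with a bacterial counterpart had a median of -0.18 (10 of 28 lower or 35.7%, 1 higher). Those found only in mitochondria had -0.13 (6 of 21 lower or 28.6%, 0 higher). In the small subunit the medians were -0.07 (4 of 16 lower, 0 higher) and 0.03 (4 of 10 lower, 2 higher), the last of which was -0.16 under median-of-ratios scaling. Differences between these subgroups were not tested.

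The stalk of the large subunit is where translation factors with GTPase activity bind, and of its proteins named here MRPL11 and MRPL10 were among the members furthest down while MRPL12 was not. MRPL11 (ENSG00000174547.13, chr11:66435075-66466738, minus strand, GRCh38), the protein that with the rRNA forms the base of the stalk, was at 60.26 FPKM untreated and at 32.03 FPKM with DAC. The ratio of these levels was 0.532, with a 95% interval of 0.499 to 0.566 that covers counting error only. MRPL10 (ENSG00000159111.12, chr17:47823272-47831534, minus strand), which anchors the stalk dimers, was at 27.74 FPKM untreated and 15.63 FPKM with DAC, a ratio of 0.563 (0.516 to 0.615). The less covered of these, MRPL10 with DAC, still had an estimated 808 reads, and neither interval comes near 1. MRPL12, the stalk dimer protein itself, was at 49.8 and 41.33 FPKM, a ratio of 0.83 (0.755 to 0.913). In GENCODE 29, 68.2% of the exon bases of MRPL12 are shared with AC139530.2 on the same strand, so its reads are uncertain.

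MRPL58 (ENSG00000167862.9, chr17:75012670-75021261, plus strand), a peptidyl-tRNA hydrolase built into the large subunit that can release stalled chains, was at 45.64 FPKM untreated and 25.4 FPKM with DAC. Its ratio of 0.557 (0.499 to 0.619) placed it beside MRPL10 and MRPL11, and none of its exon bases are shared with another gene. MRPL9, with a bacterial counterpart, was at 26.76 and 16.73 FPKM, a ratio of 0.625 (0.562 to 0.695). MRPL43, a mitochondria-specific protein, was at 18.7 and 11.7 FPKM, a ratio of 0.626 (0.571 to 0.685). The exons of MRPL9 overlap OAZ3 among others over 38.5% of their bases, and those of MRPL43 overlap SEMA4G and TWNK over 36.9%. Whether counting used strand is not given in the sources used here.

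MRPL53 had the lowest ratio of all members, at 1.25 FPKM untreated and 0.16 FPKM with DAC. It is also the member with the fewest reads among those kept, an estimated 32 untreated and 4 with DAC, so its ratio of 0.128 had an interval of 0.0323 to 0.354. CCDC142 shares 45.2% of its exon bases on the same strand. In THP-1, where MRPL53 was far better covered, it was at 68.83 FPKM untreated and 61.22 FPKM with DAC, a ratio of 0.889 (0.783 to 1.01).

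In the small subunit, MRPS28, the counterpart of bacterial S1, was the one member past 1.5-fold on the log2(FPKM + 1) scale, at -0.61, and it was not past it when the sums outside the mitochondrial genome were set equal. It was at 6.03 FPKM untreated and 3.61 FPKM with DAC, a ratio of 0.599 (0.476 to 0.754), on an estimated 206 and 123 reads. The abundant MRPS34 and MRPS26, both found only in mitochondria, lay on the same side. MRPS34 was at 103.05 and 68.46 FPKM, a ratio of 0.664 (0.621 to 0.711) and a difference of -0.58 on the log2(FPKM + 1) scale just short of 1.5-fold, and MRPS26 at 131.91 and 104.75 FPKM, a ratio of 0.794 (0.751 to 0.84). MRPS12, a protein of the decoding centre, differed by less than its counting error, at 32.54 and 30.83 FPKM (ratio 0.947, 0.876 to 1.02).

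The 3 MRPS18 paralogs sit at different places in the ribosome. MRPS18B, in the small subunit and without a direct bacterial counterpart, was at 54.31 and 41.33 FPKM, a ratio of 0.761 (0.711 to 0.815). MRPS18A, in the large subunit, was at 49.13 and 43.17 FPKM (0.879, 0.808 to 0.956), short of 1.2-fold. MRPS18C, the counterpart of bacterial S18, was at 6.47 and 6.66 FPKM (1.03, 0.917 to 1.15). The intervals of MRPS18B and MRPS18C do not overlap, but they cover counting error only. On the other strand ABRAXAS1 shares 40.2% of the exon bases of MRPS18C, and RSPH9 shares 47.0% of those of MRPS18A. MRPS18B shares none, and whether overlap enters the MRPS18A and MRPS18C values was not tested.

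The 4 members at least 1.2-fold higher in HCC1937 were all low before treatment. MRPL32 (ENSG00000106591.3, chr7:42932200-42948958, plus strand), a large-subunit protein that is matured by the m-AAA protease of the inner membrane, was at 6.38 FPKM untreated and 9.51 FPKM with DAC. Its ratio was 1.49 (1.32 to 1.69), and it was the single one of the 4 that stayed past 1.2-fold under every scaling tried, with a difference of 0.32 under median-of-ratios scaling. MRPS36 was at 7.2 and 10.1 FPKM, a ratio of 1.4 (1.17 to 1.69). MRPS25 was at 8.47 and 11.01 FPKM (1.3, 1.19 to 1.42), and MRPS31 at 4.28 and 5.52 FPKM (1.29, 1.05 to 1.58). MRPL52, MRPS35 and MRPL30 followed with ratios of 1.18 each, below the 1.2-fold mark. Where a member was below 10 FPKM on average over the pair, the members' median was 0.02, against 0.25 for other kept coding genes at that level.

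Members and other coding genes both lay lower with DAC the higher their level. Between 10 and 30 FPKM the median of the 27 members was -0.15 and that of other coding genes 0.12. Between 30 and 100 FPKM the 23 members had a median of -0.18 and other coding genes -0.04, and 8 of these members were at least 1.2-fold lower, against 29.1% of the other genes. Above 100 FPKM there were 2 members, both lower, and 47.2% of the other genes were lower. In each of the 4 ranges the members' median was below that of other coding genes.

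**Figure D2:**
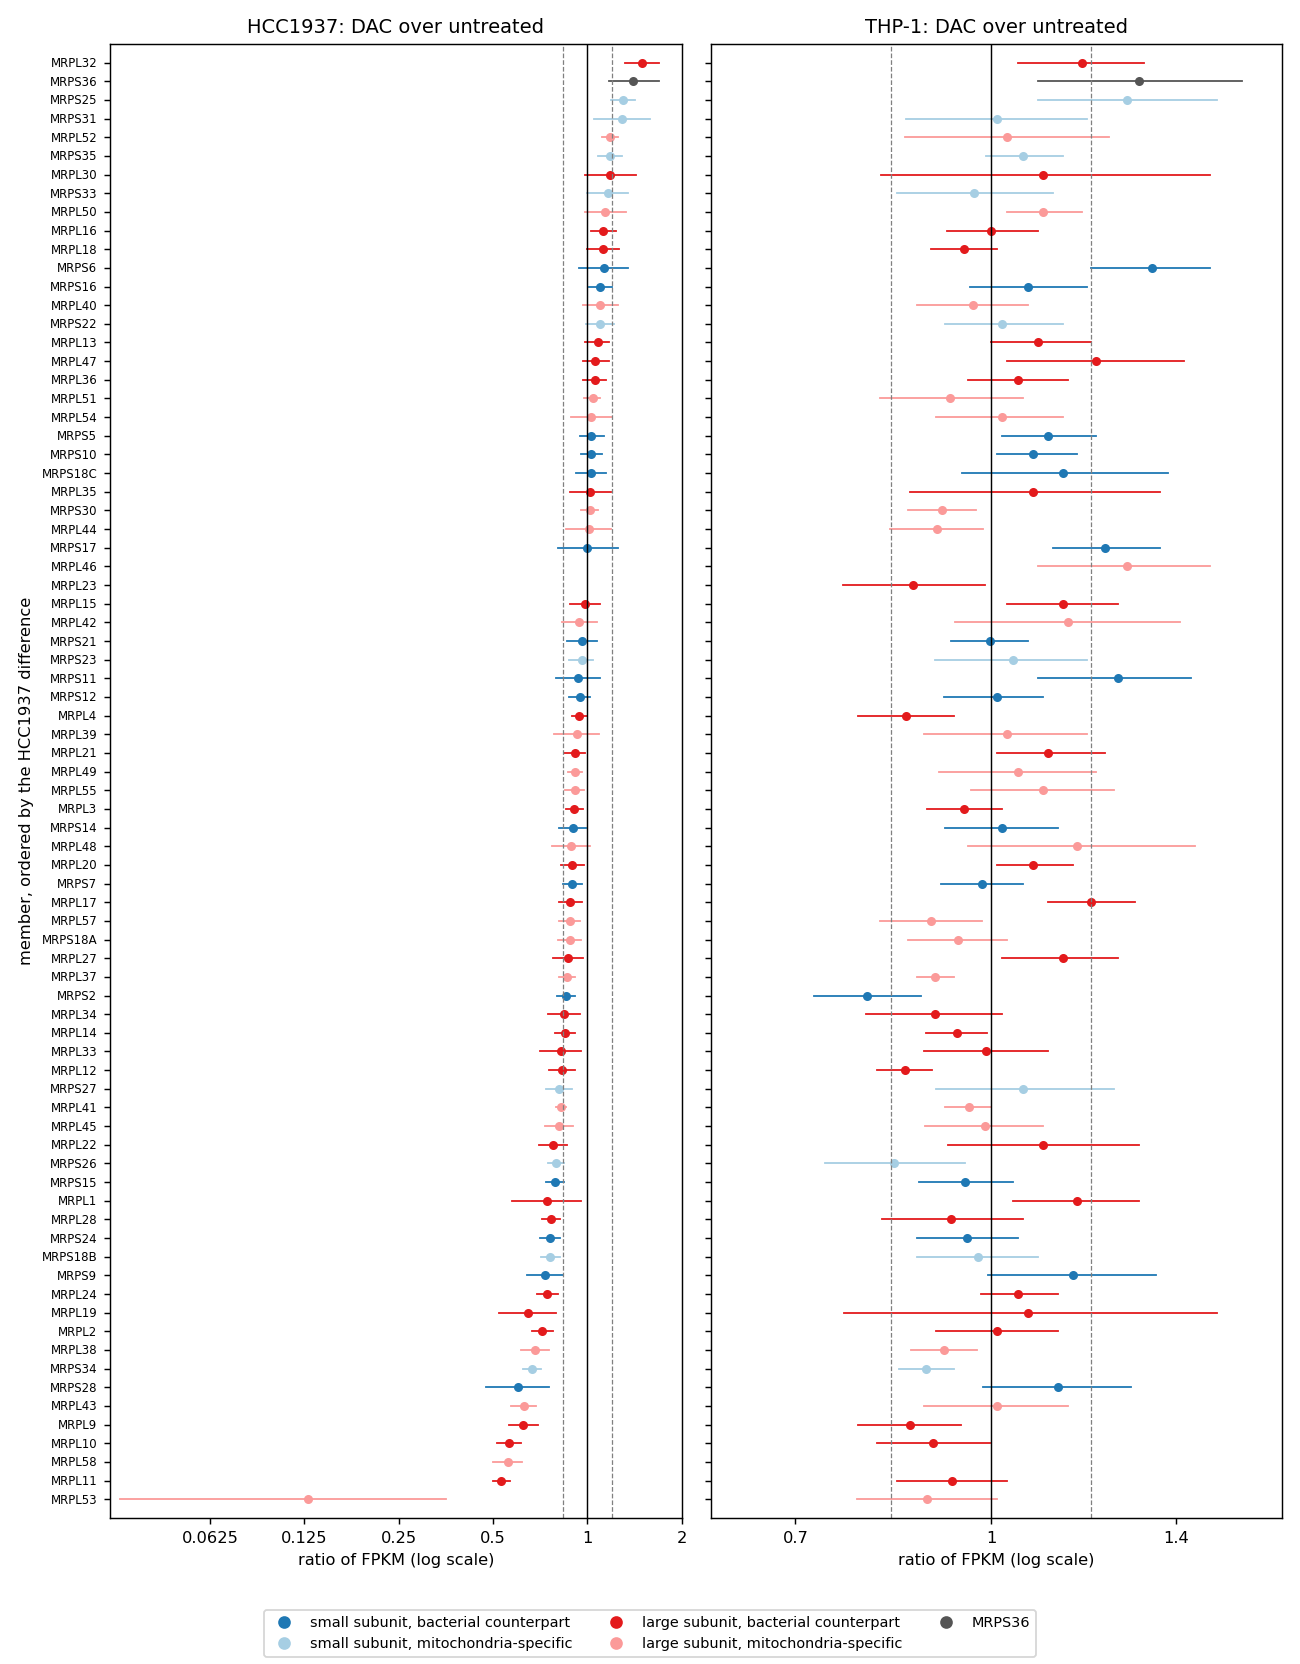
Ratio of FPKM with DAC over untreated (horizontal, log scale, with a different range in each panel) for each kept member in HCC1937 (left) and THP-1 (right), ordered by the HCC1937 difference and coloured by subunit and origin; bars are 95% counting intervals and dashed lines mark 1.2-fold. In HCC1937 the intervals of 41 members lie below 1 and those of 8 above, and in THP-1 those of 14 lie below and of 17 above. No share over all kept genes was counted for these intervals.

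Counting error alone was small for most members. In HCC1937 the kept members had a median of 934 estimated reads untreated (32 to 5935), and the interval of the ratio left out 1 for all 28 members past 1.2-fold in either direction. It lay below 1 for 41 members, above 1 for 8 and spanned 1 for 27. Intervals were computed for members only, so no share over all kept genes stands beside these counts. These intervals do not cover the difference between any 2 cultures.

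Sequence upstream of 4 members is shown. MRPL11, MRPL58 and MRPS34 were among the lower members in HCC1937, and MRPS25 was higher in both lines. These are not the most extreme members. MRPL53 and MRPL10 lay lower than MRPS34 in HCC1937, and MRPL32 and MRPS36 lay higher than MRPS25, and they are not shown. The windows come from RefSeq (GRCh38.p14), run 5′ to 3′ on the gene's strand and hold only bases before the start that lie in no annotated exon. The start used for MRPL11 is the RefSeq one and lies inside the longer span that GENCODE 29 gives the gene. Capitals mark the letters CCGGAAG or their reverse complement CTTCCGG, the core bound by ETS factors such as GABPA.
MRPL11 (chr11:66438849-66438968, minus strand): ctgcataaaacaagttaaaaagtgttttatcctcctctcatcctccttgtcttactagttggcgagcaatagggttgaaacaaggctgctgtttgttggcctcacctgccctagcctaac
MRPL58 (chr17:75012550-75012669, plus strand): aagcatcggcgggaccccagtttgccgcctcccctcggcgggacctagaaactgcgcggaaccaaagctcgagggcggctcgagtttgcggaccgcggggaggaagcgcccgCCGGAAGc
MRPS34 (chr16:1773156-1773206, minus strand): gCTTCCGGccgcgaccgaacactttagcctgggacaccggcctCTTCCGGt
MRPS25 (chr3:15065336-15065455, minus strand): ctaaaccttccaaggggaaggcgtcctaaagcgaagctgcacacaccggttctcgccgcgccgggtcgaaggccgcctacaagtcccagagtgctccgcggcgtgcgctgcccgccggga
MRPL58 has the ETS letters just before its start and MRPS34 has them at both ends of a stretch of 51 bases, whereas the stretches of MRPL11 and MRPS25 hold no match. The stretch of MRPL11 has 1 CpG in 120 bases and that of MRPL58 has 16.

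A RefSeq window of 300 bases (250 before the start and 50 after it) was found for 69 members, some of which have several starts, and was searched on both strands. The ETS letters occurred in a window of 30 members (43.5%), against 12.2% of all 27305 genes with a window and 22.7% of coding genes kept in HCC1937. The letters AAGATGG, the core of the YY1 motif, occurred in windows of 24 members (34.8%), against 7.1% of all and 9.7% of kept coding genes. The letters GCATGCG, the core bound by NRF1, a regulator of nuclear genes for mitochondria, occurred in 7 (10.1%), against 4.7% and 7.7%. In 0 of the 85 member windows did matches of 2 motifs share bases. Such matches describe the letters of a window and are not bound sites. In HCC1937 the 30 members with the ETS letters had a median difference of -0.05 and 7 were at least 1.2-fold lower, and the 38 kept members without them had a median of -0.18 and 14 were lower. This difference was not tested. In the window richest in CpG, members had a median of 25 CpG (7 to 51), against 16 over all genes and 28 over kept coding genes, and MRPL11 had 8.

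In THP-1 the members stayed close to their untreated levels. All 77 members with a value were kept, and MRPL58 has no value in this line. Past 1.2-fold upward with DAC were 7 of 77 members (9.1%), against 15.9% of all 12075 kept genes, and 1 member (1.3%) was at least 1.2-fold lower, against 5.37% of all kept genes. No member reached 1.5-fold, where 3.3% of all kept genes were higher and 1.0% lower. The median difference was 0.03 (quartiles -0.09 and 0.14), against 0.07 over all kept genes, with 45 members above 0 and 32 below. Under median-of-ratios scaling 2 members were higher (2.6%) and 6 lower (7.8%), with a median of -0.05. All kept genes then had 10.5% higher and 9.1% lower, with a median of 0.0. The summed level of the members, as deposited, was 3851.8 FPKM untreated and 3802.2 FPKM with DAC.

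The 4 small-subunit members past 1.2-fold upward in THP-1 included MRPS6, which had the largest difference. MRPS6, the counterpart of bacterial S6, was at 30.84 FPKM untreated and 41.27 FPKM with DAC, a ratio of 1.34 (1.2 to 1.49). MRPS11 was at 25.1 and 31.53 FPKM (1.26, 1.09 to 1.44) and MRPS17 at 19.68 and 24.27 FPKM (1.23, 1.12 to 1.36), both with bacterial counterparts in the small subunit. None of these 3 was past 1.2-fold in HCC1937, where MRPS6 was at 2.97 and 3.35 FPKM, MRPS11 at 2.87 and 2.68 FPKM and MRPS17 at 4.2 and 4.22 FPKM. The remaining upward members were MRPS25, MRPS36, MRPL46 and MRPL47. MRPL46 was at 14.29 and 18.22 FPKM, a ratio of 1.28 (1.09 to 1.49). Genes on the same strand share 27.0% of the exon bases of MRPS17, 11.3% of MRPL46 and 9.6% of MRPS6. Genes on the other strand share 22.2% of MRPS25, 9.2% of MRPS11 and 9.1% of MRPL47, and MRPS36 shares none. The intervals do not cover such overlap.

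MRPS2, the counterpart of bacterial S2, was the 1 member at least 1.2-fold lower in THP-1. It was at 31.58 FPKM untreated and 25.21 FPKM with DAC, a ratio of 0.798 (0.724 to 0.88). Short of 1.2-fold were MRPS26 at 23.95 and 20.08 FPKM (0.838, 0.739 to 0.954) and MRPL12 at 165.16 and 141.08 FPKM (0.854, 0.812 to 0.898). MRPL4, MRPL9 and MRPL23 came next, with ratios of 0.856, 0.862 and 0.867. The stalk proteins that stood lowest in HCC1937 were nearer to 1 here, at 0.931 (0.843 to 1.03) for MRPL11 and 0.9 (0.812 to 0.997) for MRPL10. Intervals in THP-1 use a low estimate of the reads, since the gene lengths behind these columns are not known, and left out 1 for all 8 members past 1.2-fold.

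**Figure D3:**
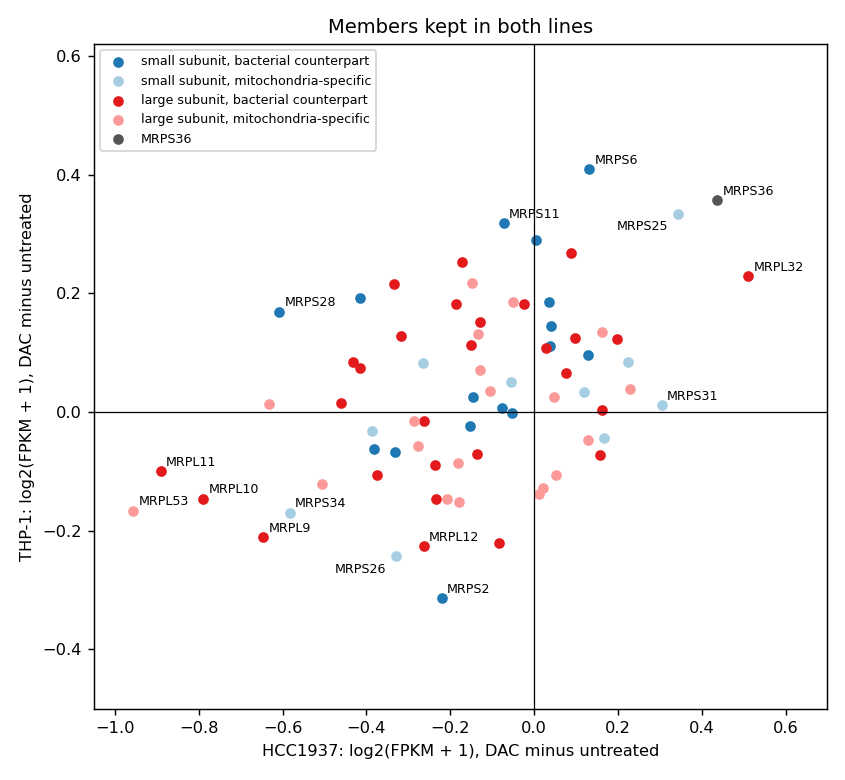
Difference with DAC in log2(FPKM + 1) in THP-1 (vertical) against HCC1937 (horizontal) for the 75 members kept in both lines, coloured by subunit and origin. MRPS25 and MRPS36 lie past 1.2-fold upward on both axes, and MRPL53, MRPL11 and MRPL10 lie furthest left.

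Set side by side, the lines shared 2 calls among the members. MRPS25 and MRPS36 were at least 1.2-fold higher in both lines, 0 members were lower in both, and 0 were called in opposite directions. These are 2 of the 4 members higher in HCC1937 and 2 of the 6 higher in THP-1, counted over the 75 kept in both, against 18.4% and 54.9% of such calls over all 9798 genes kept in both. Over all these genes 149 were lower in both, 9.6% of the lower calls in HCC1937 and 36.3% of those in THP-1. With 1 member lower in THP-1, at most 1 could have been lower in both. No share over all genes was counted for calls in opposite directions. MRPS25, a small-subunit protein found only in mitochondria, was at 12.82 and 16.42 FPKM in THP-1, a ratio of 1.28 (1.09 to 1.51). MRPS36 was at 8.63 and 11.33 FPKM there, a ratio of 1.31 (1.09 to 1.58). In both lines the DAC library had the higher level of these 2 genes, but under median-of-ratios scaling neither stayed past 1.2-fold in HCC1937, with differences of 0.15 and 0.25. Exon bases of MRPS25 are shared with NR2C2 on the other strand over 22.2%, and those of MRPS36 with no gene.

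Among the 75 members kept in both lines, 25 were below 0 in both, 21 above 0 in both, 23 lower in HCC1937 and higher in THP-1, and 6 the other way round. Of the 23 members at least 1.2-fold lower in HCC1937 with a THP-1 value, 14 were below 0 in THP-1. Across these 75 members the differences of the lines had a Pearson r of 0.44 and a Spearman rho of 0.4. This is across genes of the same 4 libraries, which are not independent, and genes share level and length effects between lines. The difference was smaller in HCC1937 than in THP-1 for 54 of the 75.

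Over both lines, limma with the cell line as a block called 0 of 77 members and 0 of 13984 genes (0.0%) at an adjusted p of 0.05. At an unadjusted p under 0.05 it left 1 member, MRPS36, with a mean log2 difference of 0.4 (SE 0.15), an unadjusted p of 0.0485 and a limma adjusted p of 0.695, higher in both lines. Over all genes 565 (4.04%) had such a p. The p of MRPS36 was not under 0.05 with a pseudocount of 0.1, with each of the 3 other scalings, without the intensity trend or without the block. MRPS25 had a mean difference of 0.34 (SE 0.14, limma adjusted p = 0.695) and MRPL11 of -0.5 (SE 0.24, limma adjusted p = 0.695). The fit has 1 residual degree of freedom per gene, and that residual is the difference in response between the lines, which also differ in dose and days.

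**Figure D4:**
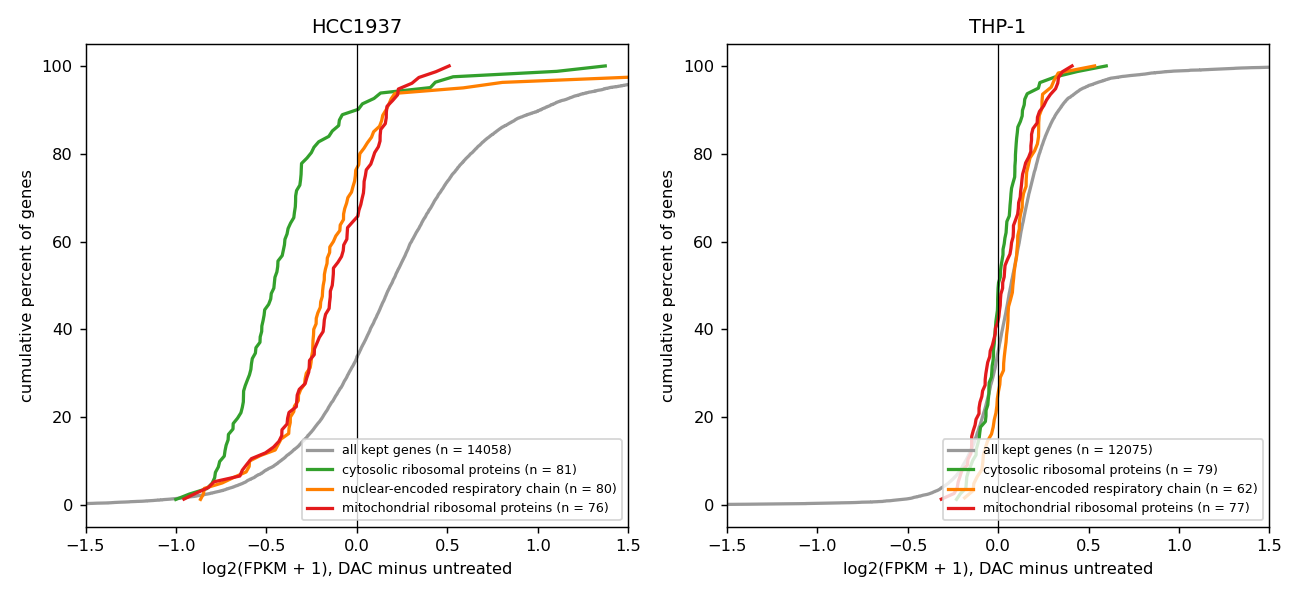
Cumulative percent of genes (vertical) by difference with DAC in log2(FPKM + 1) (horizontal) for mitochondrial ribosomal proteins, cytosolic ribosomal proteins, nuclear-encoded respiratory chain subunits and all kept genes, in HCC1937 (left) and THP-1 (right). In HCC1937 the medians are -0.13, -0.46, -0.18 and 0.19, and in THP-1 0.03, 0.00, 0.08 and 0.07. The THP-1 respiratory chain list has no ATP synthase genes.

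In HCC1937 the members lay between all genes and the cytosolic ribosomal proteins. Of all kept genes 16.1% were at least 1.2-fold lower and 43.5% higher, with a median difference of 0.19. The 81 kept cytosolic ribosomal proteins had a median difference of -0.46, with 64 at least 1.2-fold lower and 5 higher. The 80 kept nuclear-encoded respiratory chain subunits had a median of -0.18, with 24 lower and 5 higher, against -0.13 for the 76 members with 24 lower and 4 higher. In THP-1 the 3 lists had medians of 0.00, 0.08 and 0.03 in the same order, each within 0.1 of 0. The respiratory chain list is smaller there, with 62 kept subunits, because the listed ATP synthase genes, such as ATP5F1A, have no THP-1 value. The order in HCC1937 was the same under each of the scalings tried, and the differences between lists were not tested.

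The RNAs that the members bind and translate were on the other side of 0 in HCC1937. For the 2 rRNAs the median difference of 0.21 was close to the 0.19 of all kept genes, and it was 0.00 under median-of-ratios scaling. The rRNA of the small subunit, MT-RNR1, was at 1669.52 FPKM untreated and 1854.84 FPKM with DAC, and that of the large subunit, MT-RNR2, at 3194.96 and 3870.04 FPKM. All 13 mitochondrial mRNAs were at least 1.5-fold higher with DAC, against 22.0% of all kept genes, with a median difference of 0.74, and their sum went from 5341 to 9534 FPKM. MT-CO2, a cytochrome oxidase subunit, was at 1426.68 and 2712.79 FPKM. Every mitochondrial mRNA was thus higher while 49 of 76 members were below 0, and under median-of-ratios scaling the median of the mRNAs was 0.52, with all 13 past 1.2-fold and 6 past 1.5-fold. THP-1 has no values for mitochondrial genes here. Libraries were made from mRNA, and the part of RNA selection in these values was not tested.

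Other proteins of the mitochondrial ribosome whose symbols are neither MRPL nor MRPS gave like values. CHCHD1, in the small subunit, was at 17.52 FPKM untreated and 11.45 FPKM with DAC in HCC1937, a difference of -0.57, and was the 1 of 5 past 1.2-fold. DAP3, a GTP-binding small-subunit protein, was at 16.17 and 16.63 FPKM, AURKAIP1 at 84.5 and 80.91 FPKM, GADD45GIP1 at 102.81 and 92.58 FPKM and PTCD3 at 3.29 and 4.08 FPKM. In THP-1 none of the 5 passed 1.2-fold. Of 12 mitochondrial translation factors 3 were higher and 1 lower in HCC1937 (median 0.12). Of all kept genes 43.5% were higher and 16.1% lower (median 0.19), so these counts show no upward shift against all kept genes. Among the translation factors, GFM2 and MTFMT were furthest up at 0.51 and 0.52. TUFM, the elongation factor that brings tRNA to the ribosome, was at 195.39 and 163.17 FPKM.

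Of 25 kept factors that assemble the mitochondrial ribosome, 6 passed 1.2-fold upward and 5 downward in HCC1937 (median -0.06), against 43.5% and 16.1% of all kept genes. Under median-of-ratios scaling 3 passed upward and 11 downward. MRM1, a methyltransferase of the large rRNA, was at 8.46 and 14.23 FPKM, and ERAL1, which binds the small rRNA, at 39.71 and 28.13 FPKM. In THP-1, 1 of 23 was higher and 2 were lower, with NOA1, a GTPase needed for the small subunit, furthest down at 37.99 and 26.7 FPKM. Of 16 mitochondrial tRNA synthetases 2 were higher and 3 lower in HCC1937 (median -0.05), and 0 of 17 passed 1.2-fold in THP-1. Of 15 genes for copying and transcribing mitochondrial DNA 6 were higher and 2 lower in HCC1937 (median 0.14), shares near the 43.5% and 16.1% of all kept genes, and 3 and 3 under median-of-ratios scaling. TFB2M was at 4.88 and 7.9 FPKM and POLRMT, the RNA polymerase, at 20.92 and 14.81 FPKM. In HCC1937 the medians of the translation factors, assembly factors, tRNA synthetases and genes for mitochondrial DNA each changed sign under at least 1 other scaling.

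Among the regulators of nuclear genes for mitochondria, MYC was the 1 gene past 1.2-fold in either line. It was at 26.3 FPKM untreated and 37.15 FPKM with DAC in HCC1937 and at 128.54 and 80.05 FPKM in THP-1, past 1.2-fold upward in the first line and past 1.5-fold downward in the other, a difference that was not tested. NRF1 was at 4.4 and 5.07 FPKM in HCC1937 and at 6.15 and 5.21 FPKM in THP-1. TFAM, which packs and transcribes mitochondrial DNA, was at 2.8 and 3.26 FPKM and at 11.16 and 13.41 FPKM. PPARGC1A was at or near 0 in all 4 libraries (0.0 to 0.1 FPKM).

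Untreated levels of the members spread widely within each line. In HCC1937 they ran from 0.04 to 250.21 FPKM with a median of 20.2, where the median of all genes at 1 FPKM or more was 6.27, and 52 of 78 members were at 10 FPKM or more. In THP-1 they ran from 5.1 to 311.25 FPKM with a median of 36.0, against 10.2 over all genes at 1 FPKM or more, and 74 of 77 members were at 10 FPKM or more. Nearly all members were thus detected in every library, with most above the middle of expressed genes.

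MRPL41, found only in mitochondria, had the highest level in HCC1937 at 250.21 FPKM and the second highest in THP-1 at 173.88 FPKM. MRPS26, MRPS34 and MRPL14 followed in HCC1937 at 131.91, 103.05 and 86.31 FPKM. In THP-1 MRPL37 led at 311.25 FPKM, with MRPL12 at 165.16 and MRPS34 at 161.25 FPKM. The lowest members in THP-1 were MRPL19 at 5.1 FPKM, MRPL30 at 8.04 FPKM, MRPS36 at 8.63 FPKM and MRPS31 at 10.02 FPKM. With 1 library each, neighbours in these orders cannot be separated beyond counting error.

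**Figure D5:**
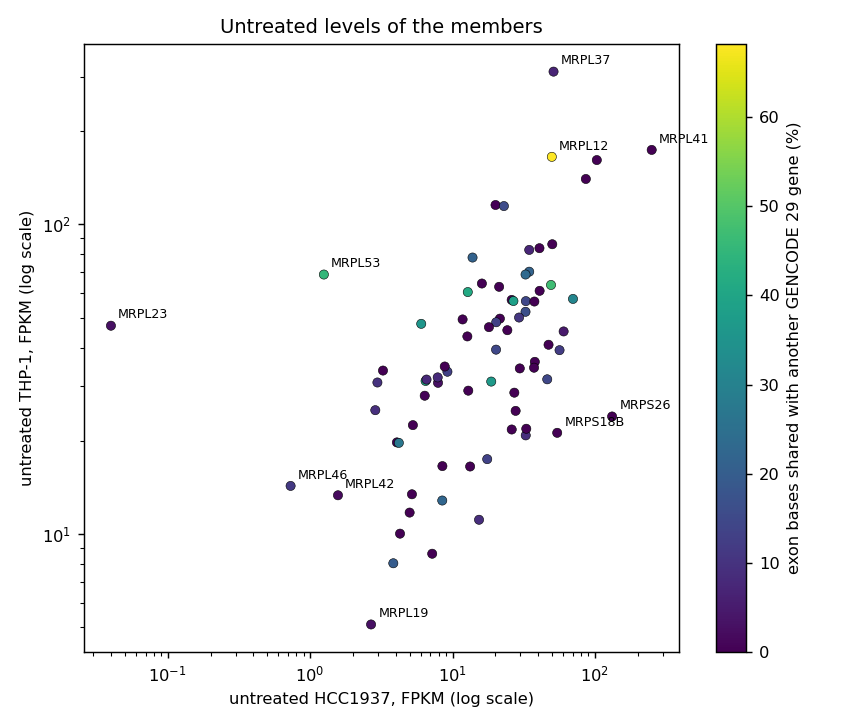
Untreated FPKM in THP-1 (vertical, log scale) against HCC1937 (horizontal, log scale) for the 77 members with both values, coloured by the percent of exon bases shared with another GENCODE 29 gene. MRPL23, MRPL46, MRPL53 and MRPL42 lie far to the left at 0.04 to 1.57 FPKM in HCC1937. Positions depend on the gene lengths used, which are not known for THP-1.

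The order of the members differed between the lines, with a Spearman rho of 0.55 over 77 members. Because the 2 pairs of columns appear to rest on unlike gene sets, only ranks are compared between lines. MRPL23, a protein of the exit tunnel, ranked last of 78 in HCC1937 at 0.04 FPKM in both libraries, an estimated 2 reads each, but 31 of 77 in THP-1 at 47.04 FPKM untreated and 40.8 FPKM with DAC. MRPL53 ranked 76 and 14, and MRPL46, at 0.73 FPKM in both HCC1937 libraries, ranked 77 and 68. MRPL23 and MRPL46 are the 2 members that were not kept in HCC1937.

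In the other direction, MRPS26 ranked 2 in HCC1937 and 57 in THP-1, and MRPS18B ranked 8 and 61. Overlap with other genes was small for several of these, with 2.9% of exon bases for MRPL23, 11.3% for MRPL46 and 0.0% for MRPS26 and MRPS18B. Over all members, 37 share no exon base with another gene and 14 share at least 20%. The 37 without overlap had a median difference of -0.13 in HCC1937 with 11 at least 1.2-fold lower, and the 14 with much overlap had -0.26 with 7 lower.

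Of the remaining members looked at by name, MRPS30 was at 16.08 and 16.34 FPKM in HCC1937 and at 64.38 and 58.86 FPKM in THP-1. MRPL36, a small zinc-binding protein of the large subunit, was at 40.77 and 43.06 FPKM and at 83.73 and 87.68 FPKM. MRPL33 was at 13.82 and 11.36 FPKM in HCC1937, a ratio of 0.822 (0.708 to 0.953), and at 78.1 and 77.31 FPKM in THP-1. None of the 3 was past 1.2-fold in either line on the log2(FPKM + 1) scale. Pseudogenes of the family added little to the table, since 66 of 76 were at 0 in both HCC1937 libraries and 3 reached 1 FPKM in either.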

How the data were processed

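RNA was sequenced from 4 cultures, 1 per group. An Illumina TruSeq kit was used on purified mRNA, per the labels' protocols. The submitters' processing notes name hg38 and, as tools, STAR, HTSeq, cutadapt and FastQC. Their versions, the annotation and strand use are not given in the sources used here. The table deposited by the authors names no unit. Its values were read as FPKM, because for short genes (50 to 250 bp, GENCODE 29) value times length fell within 0.1 of whole multiples of 1 step in 92.3% to 94.2% of genes per library. The THP-1 columns, deposited by the authors without values in 37039 of 60612 lines, appear to rest on another gene set, whose lengths are not known.

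The 1079 lines of 76 repeated symbols were left out. Differences were taken on log2(FPKM + 1) of the deposited values, in genes that reached 1 FPKM in either library of a pair, and called at 1.2, 1.5 and 2-fold. Counting intervals are exact (Clopper-Pearson, 95%), from reads estimated as FPKM times exon length times depth. Over both lines limma 3.58.1 (R 4.3.3) used the line as a block, an intensity trend and Benjamini-Hochberg adjustment at 0.05 over all genes. The remaining steps used scipy 1.17.1, numpy 2.4.6, pandas 2.3.3 and matplotlib 3.10.9 under Python 3.11.15, and the scripts were tested on simulated data. Alternatives were other pseudocounts, filters, scalings and limma designs.

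Members and gene lists were chosen with earlier results of these data known. Named were, per line, the 6 largest differences each way, the 4 highest and 4 lowest untreated levels, members past 1.5-fold or past 1.2-fold in both lines, members not kept and 11 set members, and in other lists up to 3 genes per list and line plus 12 set genes. MRPL47 and other genes named beside a count were chosen after their values were seen.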

Additional observations from a re-analysis of the deposited data

How the results depend on the processing

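In HCC1937 the median difference of the members stayed below 0 under all 9 alternatives run, including 1 chosen after seeing the data. A pseudocount of 10 left 0 members at least 1.2-fold higher and 15 lower. Median-of-ratios scaling gave 1 higher, 44 lower and a median of -0.34, and upper-quartile scaling 2, 41 and -0.3. Of all kept genes 30.9% were higher and 27.2% lower under the first, and 33.2% and 24.5% under the second. Leaving out members with overlapping exons, the alternative chosen after seeing the data, left 37 members with 2 higher and 11 lower in HCC1937, and 36 with 1 higher and 0 lower in THP-1. In THP-1 a pseudocount of 10 left 1 higher and 0 lower. Median-of-ratios scaling gave 2 higher, 6 lower and a median of -0.05, and upper-quartile scaling gave 2 lower and a median of -0.01, so the sign of the THP-1 median depends on the scaling. Of all kept genes 10.5% were higher and 9.1% lower under the first, and 6.6% were lower under the second. Fewer members are counted without the overlapping ones, and the cause of these shifts was not tested. In THP-1 the members past 1.2-fold upward that share exon bases are MRPS17 (27.0%), MRPS25 (22.2%), MRPL46 (11.3%), MRPS6 (9.6%), MRPS11 (9.2%) and MRPL47 (9.1%). MRPS36 shares none, and MRPS2, the lower member, shares 14.4%. The limma fits called 0 members under each of 11 alternatives, the one without a block for the cell line (0 called) among them. That block pairs each DAC library with the untreated one of its line, and replicate numbers allow no other pairing with 1 library a group. For named members, 487 of 545 differences under an alternative shifted by no more than the distance from their ratio to the bound of its counting interval and 58 by more. Of the 545, 17 changed sign, none of them of a member past 1.2-fold as deposited. Depth limits MRPL53 and MRPL23 in HCC1937 most, and no interval here covers variation between cultures.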
